A study of Mus musculus with 6 samples.

Results

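Parental mouse embryonic stem cells (ESC) were followed over the second stretch of a directed differentiation towards mesoderm, from day 3 to day 6. The day 3 library held 948 kept cells and the day 6 library 1546, together 2494 of the 7096 cells kept in the whole series. Kept barcodes had 1000 or more detected genes and no more than 10% mitochondrial UMIs (unique molecular identifiers, 1 per captured transcript end). The series compares cells labelled Parental with cells labelled Oct1_cKO, a conditional knockout of the POU-domain factor Oct1 (gene Pou2f1), each as ESC, at day 3 and at day 6, with 1 library per group. By the protocol, ESC on 0.1% gelatin were held in N2B27 medium with Bmp4 for 2 days. For the next 4 days the medium was a DMEM base that held Rspo3 and LDN-193189. All groups at day 3 and day 6 went through this protocol, and the labels give no further allele, agent or clone for the Parental cells. At day 3 the cells had therefore left Bmp4 for a DMEM base with the Wnt enhancer Rspo3 and the BMP receptor inhibitor LDN-193189, in which they stayed until day 6.

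In the embryo, pluripotent epiblast cells leave through the primitive streak or stay at the tail end as neuromesodermal progenitors, which express T together with Sox2 and the Cdx genes. Wnt and FGF signals hold cells in that state. Progeny that turn on Tbx6 become presomitic mesoderm, in which the Notch-driven segmentation clock runs, and then somites marked by Meox1 and Tcf15. Progeny that keep Sox2 and turn on Sox1 and Pax6 become neural tube, and Hox genes of successive paralog groups mark the position of both tissues along the body axis.

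UMIs of the kept cells were summed per gene and expressed as CPM (counts per 1000000). With 1 library on each side there are no replicates and no test. The 95% intervals given in brackets cover counting error only, and a difference between the libraries may come from the culture, the preparation or the stage. "Higher", "lower", "rose" and "fell" are used for a ratio of at least 2-fold in a measured gene. Measured genes are those that reached 5 CPM in either library. In summed libraries, fewer cells of a kind and less RNA per cell cannot be told apart. The kept cells held 77786883 UMIs at day 3 and 69274012 at day 6, with medians of 82544 and 36219 UMIs per cell, so the day 6 cells were shallower. Mitochondrial genes took 3.81% and 3.74% of the UMIs. The libraries shared 2 barcodes.

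Of 10058 genes measured, 1844 were higher at day 6, or 18.3%, and 544 were lower, or 5.41%. Higher genes made up 77.2% of all calls. With TMM factors that share was 61.1% (1339 higher and 852 lower), and with median-of-ratios size factors 61.6%. The median log2 ratio of all measured genes was 0.22, and −0.03 with either of those factors, so the list medians below are to be read against 0.22. Changes of at least 8-fold were found for 288 higher and 66 lower genes. A gene measured through the later library alone had to be higher, so the count of a list's higher members describes these libraries and supports nothing by itself.

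**Figure D1:**
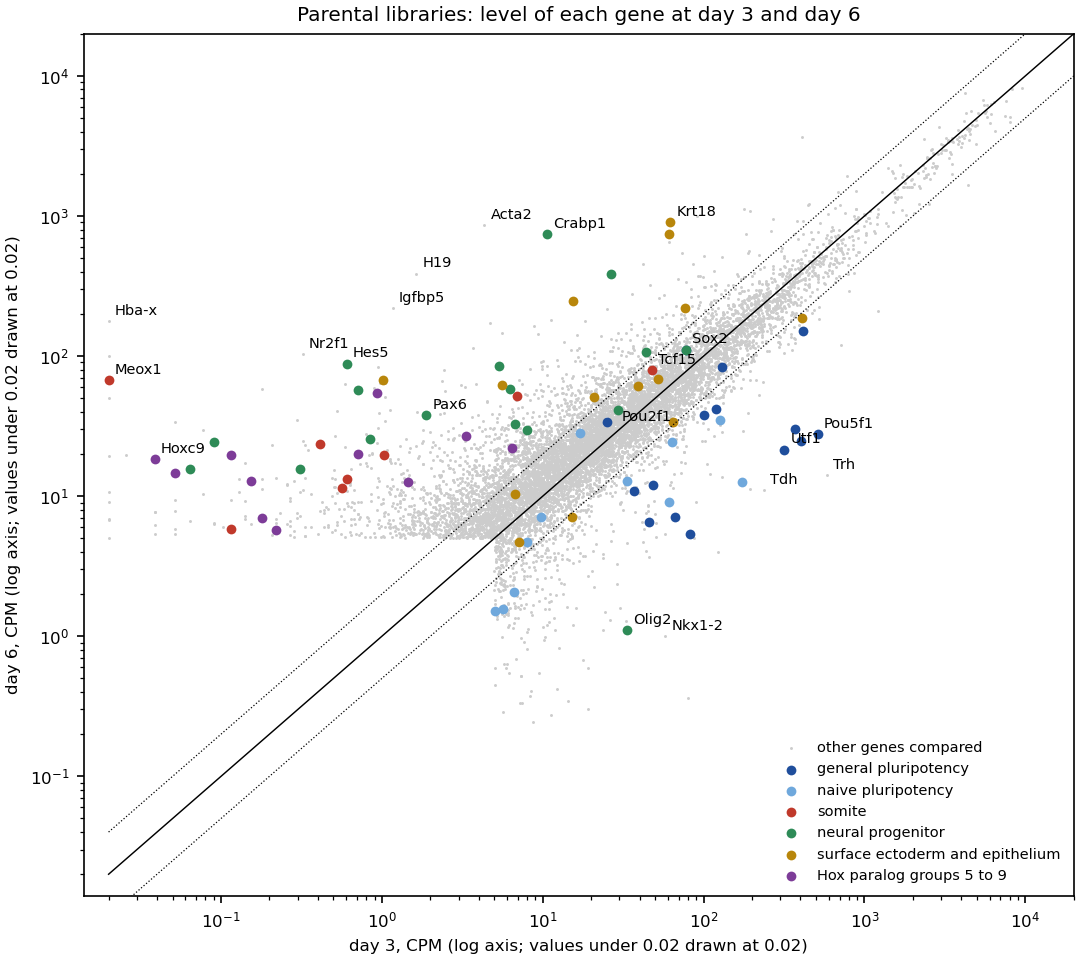
Level of each measured gene in the Parental libraries, with day 3 CPM on the x axis and day 6 CPM on the y axis, both on log axes. The solid line marks equal levels and the dotted lines a 2-fold difference; members of the pluripotency lists lie mostly under the lower dotted line, and those of the somite list and of Hox paralog groups 5 to 9 above the upper one, with Tcf15 at 47.5 and 79.7 CPM as an exception.

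The pluripotency genes fell from day 3 to day 6, and none of their 2 lists rose. Of 15 measured members of the general pluripotency list, 12 were lower and 0 higher, with a median log2 ratio of −2.01 (−3.88 to −1.40). Pou5f1 (ENSMUSG00000024406, mm10 chromosome 17, 35506018 to 35510772, plus strand) is the gene of the pluripotency factor Oct4. It measured 512.4 CPM at day 3 and 27.8 CPM at day 6, a log2 ratio of −4.20 (−4.27 to −4.14). Utf1, a chromatin factor of ESC, went from 317.3 to 21.5 CPM, and L1td1, an RNA-binding protein of pluripotent cells, from 402.5 to 24.9 CPM. The de novo DNA methyltransferase Dnmt3b went from 372.6 to 30.2 CPM (−3.62; −3.69 to −3.56). The 3 members that changed by less than 2-fold were the neural and pluripotent factor Sox2 (77.8 and 111.1 CPM), the let-7 inhibitor Lin28b (25.2 and 33.9 CPM) and the ubiquitin ligase Trim71 (130.1 and 83.1 CPM).

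Of the naive list, which marks the ground state of ESC, 8 of 11 measured members were lower and 0 higher, with a median of −1.68 (−2.73 to −0.46). Tdgf1, a Nodal co-receptor, had the lowest ratio of that list (172.7 and 12.6 CPM; −3.77, −3.87 to −3.67). Nanog went from 60.7 to 9.15 CPM. Klf5 had the highest ratio, at 17.0 and 28.1 CPM (0.72; 0.62 to 0.82). Klf4 and Tfcp2l1, naive factors that changed by less than 2-fold after day 3, had been at 210.0 and 220.8 CPM in ESC, against 9.74 and 7.97 CPM at day 3. The ESC library carries a different title prefix from the day 3 and day 6 libraries, and the labels do not say what the prefix means.

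The primed list, for the epiblast stage that follows naive pluripotency, had 7 of 11 measured members lower and 2 higher. Fgf5, the defining growth factor of that state, went from 12.6 to 0.823 CPM, and the POU factor Pou3f1 from 188.2 to 39.2 CPM. The 2 higher members were Cdh2, N-cadherin, with 9.71 and 90.6 CPM, and the surface protein Cd24a, with 59.6 and 167.0 CPM.

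Beyond the lists, the 15 lowest genes by the naming rule included Trh, the precursor of thyrotropin-releasing hormone, at 583.0 and 14.2 CPM (−5.36; −5.45 to −5.27). Tdh, a threonine dehydrogenase of mouse ESC, measured 236.5 and 11.1 CPM (−4.42; −4.52 to −4.31). The kinase gene Pim2 went from 123.1 to 3.98 CPM, Apela, a ligand of the apelin receptor, from 193.6 to 11.3 CPM, and the phospholipase gene Pla2g1b from 87.3 to 4.99 CPM. Olig2 and Olig1, helix-loop-helix factors better known from ventral spinal cord, were lower as well, at 33.3 and 1.11 CPM and at 30.3 and 1.60 CPM. Both had been present in ESC, at 27 and 14.9 CPM. Platr10, the neurofilament gene Nefh, Gdf3 and Nkx1-2 complete the set with the genes named above. In cells thinned at random to 5000 UMIs each, Pou5f1 was seen in 87.1% of day 3 cells and 5.84% of day 6 cells, and Trh in 52.3% and 1.15%.

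The genes of the streak and of the caudal progenitors also fell. Of 8 measured members of the primitive streak list, 6 were lower and 1 higher. T, or brachyury, which defines the streak and notochord, measured 42.2 CPM at day 3 and 4.68 CPM at day 6 (−3.17; −3.34 to −3.01). Eomes, a T-box factor of early mesendoderm, went from 9.50 to 0.549 CPM (−4.11; −4.62 to −3.64), and Nodal from 41.3 to 6.50 CPM. Fgf8 was at 7.52 CPM at day 6, a log2 ratio of −2.73. Lhx1, a homeobox gene of intermediate mesoderm and of spinal interneurons, was the higher member, at 0.746 and 9.05 CPM.

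Of 9 measured members of the neuromesodermal and caudal list, 6 were lower, with a median of −1.90 (−2.32 to 1.55). Nkx1-2, a homeobox gene of the caudal epiblast, had the lowest ratio (57.7 and 0.996 CPM; −5.86, −6.22 to −5.51). Cdx2, a regulator of posterior identity, measured 26.6 and 6.37 CPM (−2.06; −2.21 to −1.91) and Cdx1 20.5 and 4.09 CPM. The 2 higher members were the Hes-family gene Hes3, at 0.746 and 5.44 CPM, and the estrogen-response gene Greb1, at 7.74 and 22.7 CPM.

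Genes of somites and dermomyotome rose, while the defining factors of the presomitic state stayed low. Tbx6 measured 0.180 CPM at day 3 and 0.419 CPM at day 6, and Msgn1 had no UMI in either library. Of the 6 measured presomitic genes, 5 were higher, with a median of 2.47. They were the Notch ligand Dll1 (2.40 and 12.9 CPM), its modifier Lfng (1.05 and 6.01 CPM; 2.51, 2.17 to 2.87), the Wnt enhancer Rspo3 (2.24 and 7.48 CPM), the protocadherin Pcdh8 (1.08 and 11.9 CPM) and the transcriptional co-regulator Cited1 (8.37 and 48.2 CPM). Dll1 and Lfng act in neural progenitors too. By the clusters of day 6 described below, the presomitic markers (Tbx6, Msgn1, Dll1, Dll3, Hes7 and Rspo3) summed to 502.0 CPM in young neuron-like cluster 2, 411.7 CPM in unnamed cluster 12 and 36.4 CPM in the somite-like cluster. Dll1 stood at 129.6 CPM in cluster 2 and 3.89 CPM in the somite-like cluster, and Rspo3 at 245.3 CPM in cluster 12. Of the 5 higher members, Lfng, Pcdh8 and Cited1 are not given by cluster here. The rise of this list is therefore not read as a measure of presomitic cells, and its source was not tested.

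Of 8 measured somite genes, 7 were higher and 0 lower, with a median of 4.40. Meox1 (ENSMUSG00000001493, mm10 chromosome 11, 101877510 to 101894374, minus strand) is a homeobox gene of somites. It had no UMI at day 3 and 67.5 CPM at day 6. Against a floor of 3 counts over the day 3 library this is a log2 ratio of 10.77, and the lower limit of its counting interval is 10.47. Uncx, which marks the posterior part of each somite, measured 0.604 and 13.3 CPM (4.46; 4.04 to 4.92), the forkhead gene Foxc1 0.411 and 23.4 CPM (5.83; 5.33 to 6.38) and the retinoic acid synthase Aldh1a2 0.566 and 11.4 CPM. Foxc2, Foxd1 and Twist1 rose too. Tcf15, or paraxis, was already at 47.5 CPM at day 3 and reached 79.7 CPM. Its day 3 level was highest, at 134.6 CPM, in a cluster of 92 cells led by other genes, in which the naive gene Zfp42 stood at 276.7 CPM.

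All 5 measured genes of dermomyotome and muscle were higher, with a median of 5.61. Pax3, a paired-box gene of both dermomyotome and dorsal neural tube, measured 1.04 and 51.0 CPM (5.61; 5.30 to 5.95). Pax7, its relative with the same pair of sites, had 1 UMI at day 3 and 10.7 CPM at day 6 (9.70; 7.22 to 15.01). Lbx1, a gene of migrating muscle precursors and dorsal interneurons, had 1 UMI at day 3 and 6.86 CPM at day 6. Eya1, a transcriptional co-activator of muscle precursors, rose from 1.92 to 6.50 CPM. The muscle factors Myf5 and Myod1 stayed below 1 CPM in both libraries, at 0.0900 and 0.967 and at 0.167 and 0.0722 CPM.

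Genes of mesenchyme and smooth muscle rose together with matrix genes. Acta2 (ENSMUSG00000035783, mm10 chromosome 19, 34241090 to 34255590, minus strand) encodes smooth muscle actin. It had the largest rise by the naming rule, which ranks ratios with 1 CPM added (4.33 and 865.5 CPM, log2 ratio without that addition 7.64, 7.49 to 7.80). Acta2 had been at 116.2 CPM in the ESC library, so day 3 was its lowest level of the 3 stages. Actc1, cardiac actin, measured 0.951 and 84.1 CPM. Tagln and Cnn1, both actin-binding proteins of smooth muscle, went from 90.5 to 996.9 and from 12.5 to 43.4 CPM. The cardiac and lateral plate regulators Nkx2-5, Gata4, Hand2, Tbx20 and Isl1 all stayed below 1 CPM in both libraries. All 13 genes of the list of epithelial to mesenchymal transition were measured and higher, with a median of 2.36 (1.45 to 3.22). In that list Cdh11, a mesenchymal cadherin, rose from 0.501 to 15.4 CPM, and Vim, vimentin, from 179.0 to 1112.8 CPM. Of 16 measured collagen and laminin genes 11 were higher and 0 lower, among them Col1a1 (2.42 and 79.1 CPM) and Col3a1 (0.951 and 30.8 CPM).

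Mgp, an inhibitor of calcification that fibroblasts also make, went the opposite way, from 79.5 to 0.361 CPM (−7.78; −8.41 to −7.22). At day 3 it was seen in 4.96% of cells, and 99.4% of its UMIs lay in 1 cluster of 145 cells, in which 6.21% of cells held it. Its level therefore describes few cells of that library.

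The neural programme rose alongside mesoderm. Of 17 measured neural progenitor genes 14 were higher and 1, Olig2, was lower, with a median of 3.98 (1.89 to 6.13). Sox1, the earliest of these factors in the neural plate, measured 8.03 and 29.8 CPM (1.89; 1.76 to 2.02). Pax6, a homeobox regulator of neural progenitors, measured 1.88 and 38.0 CPM (4.34; 4.10 to 4.59). Hes5 (ENSMUSG00000048001, mm10 chromosome 4, 154960923 to 154962371, plus strand) is a Notch target of neural progenitors. It measured 0.604 and 88.4 CPM (7.19; 6.78 to 7.64). Crabp1, a cytoplasmic carrier of retinoic acid, measured 10.6 and 738.6 CPM (6.13; 6.03 to 6.23), the highest day 6 level in the list. The POU factors Pou3f2 and Pou3f3 went from 0.707 to 57.5 and from 0.0900 to 24.2 CPM, and Dbx1, a factor of the intermediate spinal cord, from 0.0643 to 15.5 CPM. Sox2 and Sox3 changed by less than 2-fold.

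Genes of young neurons followed, with 10 of 12 measured members higher, 0 lower and a median of 2.63. The tubulin Tubb3 measured 46.1 and 144.4 CPM, the proneural gene Neurog1 0.180 and 11.2 CPM, the RNA-binding protein Elavl4 2.25 and 22.2 CPM, and Nhlh2 0.823 and 25.3 CPM (4.94; 4.58 to 5.33). Of the neural crest list 4 of 5 measured members rose, led by Tfap2b, with 1 UMI at day 3 and 19.5 CPM at day 6. Tfap2b is also expressed by spinal interneurons, and Sox10, the defining crest factor, stayed below 1 CPM (0.219 and 0.808 CPM).

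Genes of surface ectoderm and epithelium split. Of 14 measured members 7 were higher and 2 lower, with a median of 0.98 (−0.92 to 3.87). The keratins of simple epithelia rose, Krt18 from 62.1 to 909.6 CPM (3.87; 3.83 to 3.92), Krt8 from 60.8 to 745.6 CPM, Krt19 from 15.5 to 248.2 CPM and Krt7 from 1.02 to 67.8 CPM. The ligand Wnt6 rose from 5.55 to 62.3 CPM. Epcam, which pluripotent cells share with epithelia, was lower (407.7 and 187.9 CPM), as was the splicing factor Esrp1, and Cdh1, E-cadherin, went from 64.4 to 34.0 CPM. Krt5, a keratin of stratified epithelium, and Trp63, its regulator, had at most 0.0289 and 0.101 CPM.

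**Figure D2:**
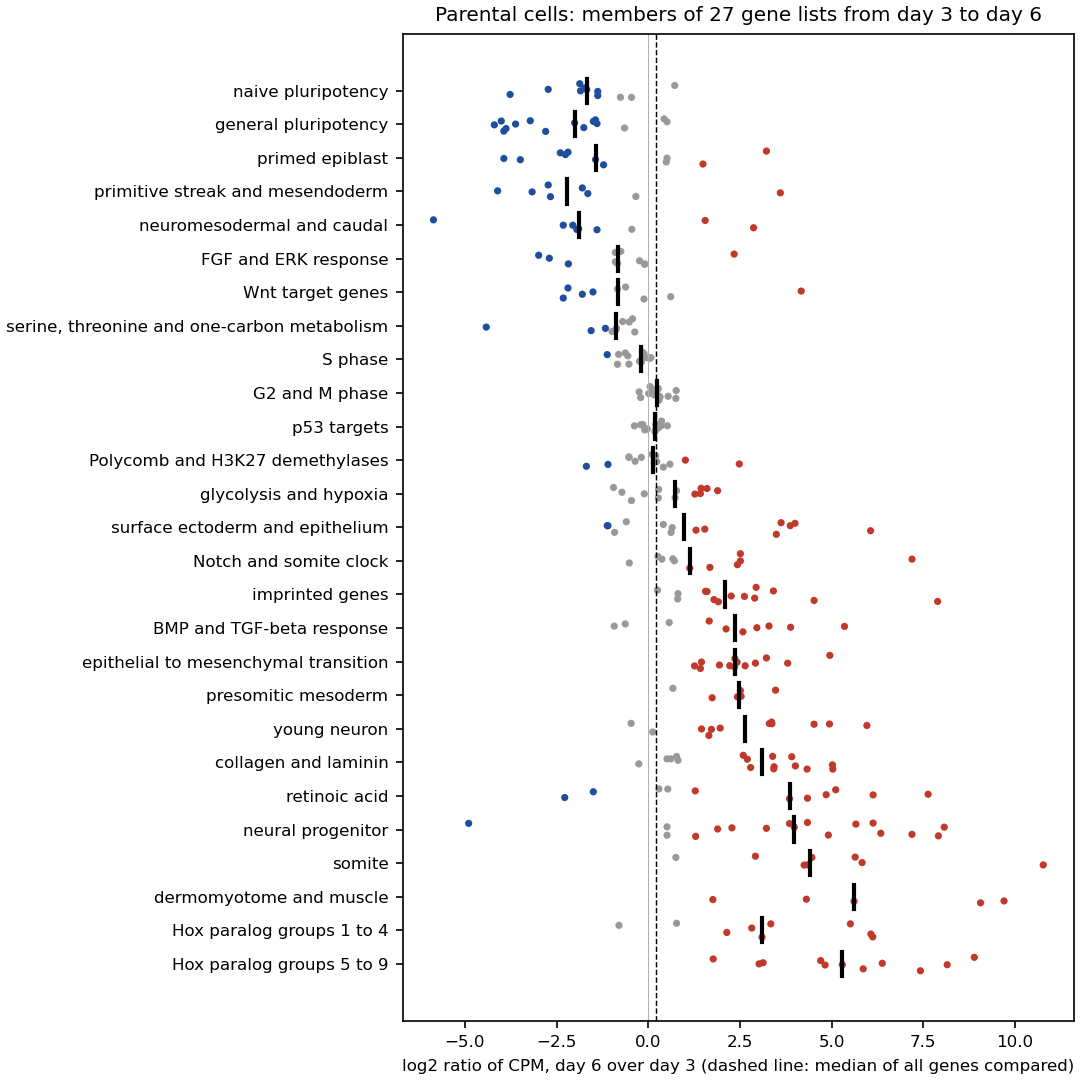
Log2 ratio of CPM, day 6 over day 3, for each measured member (dot) of 27 gene lists in the Parental libraries; black bars are list medians, red and blue dots are members at least 2-fold higher or lower, and the dashed line is the median of all measured genes, 0.22. The pluripotency, streak and caudal lists have medians under −1, and the somite, neural progenitor and Hox lists medians above 3.

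Hox genes were higher for most of the measured members of groups 1 to 9. Groups 1 to 4 pattern the hindbrain and neck, groups 5 to 9 the trunk and groups 10 to 13 the lower back and tail. Of groups 1 to 4, 7 of 9 measured genes were higher, with a median of 3.1. Hoxb1, among the first to be expressed in the embryo, changed by less than 2-fold, at 11 and 18.7 CPM. Hoxb2 rose from 9.90 to 84.6 CPM (3.1; 2.99 to 3.21) and Hoxb4 from 0.887 to 59.5 CPM (6.07; 5.72 to 6.43). All 11 measured genes of groups 5 to 9 were higher, with a median of 5.29 (3.02 to 8.15). The interval of groups 1 to 4 (0.77 to 6.07) overlaps it, and among genes with at least 20 CPM the medians were 3.34 for groups 1 to 4 and 3.02 for groups 5 to 9, so no order between them is read. Hoxb9 rose from 0.938 to 54.3 CPM (5.86; 5.52 to 6.21). Hoxc9 had 3 UMIs at day 3 and 18.3 CPM at day 6 (8.89; 7.34 to 11.17). The antisense RNA Hoxb5os, which overlaps the Hoxb cluster, had 1 UMI at day 3 and 67.3 CPM at day 6. Whether the counting used strand is not given in the sources used here, so reads of neighbouring Hoxb genes cannot be told apart from it. None of the 12 genes of groups 10 to 13 reached 5 CPM, and Hoxc10 came closest, at 3.52 CPM at day 6.

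**Figure D3:**
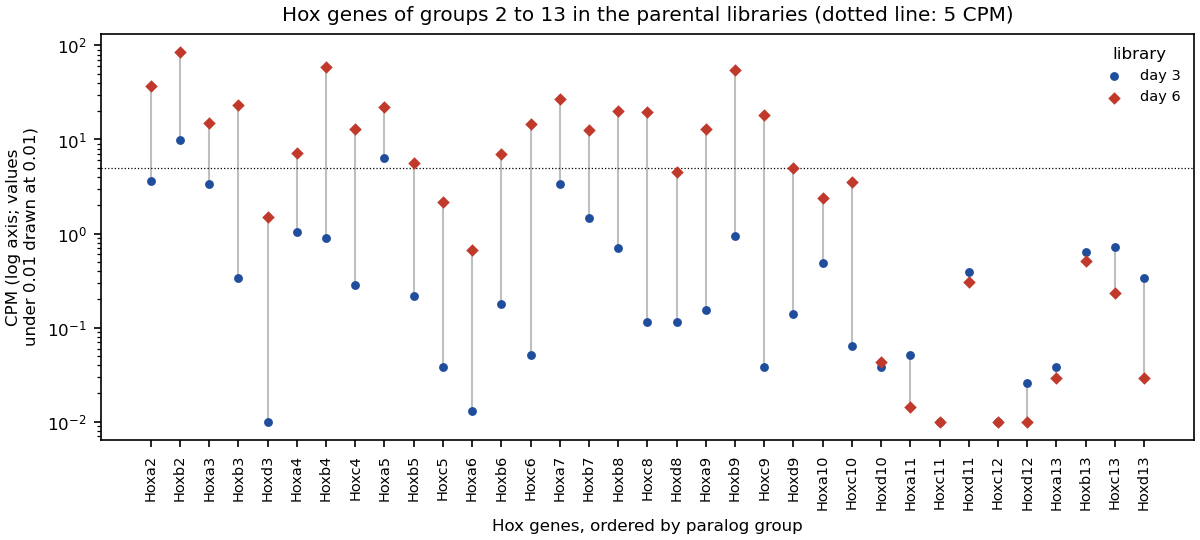
CPM of each Hox gene of paralog groups 2 to 13 (log y axis) in the day 3 (blue circles) and day 6 (red diamonds) Parental libraries, ordered by paralog group on the x axis. Day 6 lies above day 3 for the genes from Hoxa2 to Hoxc10 in this order, while genes of groups 11 to 13 stay under 1 CPM in both libraries.

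Signalling genes were read by role, beginning with Notch. The Notch list, with the somite clock, had 6 of 11 measured members higher and 0 lower, with a median of 1.13 (0.26 to 2.51). The receptors Notch1 and Notch3 went from 7.39 to 23.7 and from 9.91 to 21.7 CPM. The ligand Dll3 measured 15.5 and 24.6 CPM and Jag1 5.40 and 3.75 CPM. The feedback regulator Nrarp measured 3.37 and 19.2 CPM. Hes7, the central oscillator of the clock in presomitic mesoderm, was at 0.527 and 0.953 CPM, far below Hes5.

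Promoters of that list were searched for GTGGGAA, a core of the site bound by the Notch effector RBPJ, on both strands of windows from 250 bases before to 50 after each start. It was present in 3 of 12 windows from 11 members, or 25%, and in 6.38% of all 32851 windows of the table. The members with a match were Hes5, Hes7 and Lfng. The stretches before the start of Hes5 and Lfng, the 2 of them that rose, are shown with the matches on either strand in capitals (RefSeq, GRCm38.p6; chr4:154960673-154960922, plus strand, and chr5:140607091-140607340, plus strand).
Hes5: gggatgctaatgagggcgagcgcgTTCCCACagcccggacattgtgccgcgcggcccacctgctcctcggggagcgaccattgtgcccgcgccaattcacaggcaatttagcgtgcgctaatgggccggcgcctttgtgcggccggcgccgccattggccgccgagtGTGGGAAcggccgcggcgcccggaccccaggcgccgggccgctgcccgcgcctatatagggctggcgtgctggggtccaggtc
Lfng: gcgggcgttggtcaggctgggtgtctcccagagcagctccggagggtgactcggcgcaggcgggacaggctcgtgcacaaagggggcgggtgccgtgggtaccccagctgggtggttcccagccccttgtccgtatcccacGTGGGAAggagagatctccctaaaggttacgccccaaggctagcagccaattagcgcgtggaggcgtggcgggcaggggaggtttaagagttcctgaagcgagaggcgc
The Hes5 stretch holds the 7 letters on each strand, 14 bases in all, and the Lfng stretch holds them once. A match is a description of the letters and says nothing of binding.

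Wnt ligands changed in identity. Of 8 measured ligands 5 were higher and 3 lower. Wnt8a, a ligand of the streak, measured 26.3 and 1.31 CPM, Wnt3 10.9 and 3.46 CPM and Wnt5b 10.4 and 3.94 CPM. The higher ligands were Wnt6, Wnt4 (3.03 and 27.2 CPM), Wnt7b (0.219 and 13.4 CPM), Wnt10a (0.463 and 6.26 CPM) and Wnt5a (0.437 and 8.03 CPM). Among 9 measured Wnt target genes 4 were lower and 1 higher, with a median of −0.84 (−2.19 to 0.61). The lower targets were Lef1 (65.7 and 14.4 CPM), Cdx1, the cyclin Ccnd1 (131.7 and 46.2 CPM) and Sp5, a zinc finger factor induced by Wnt (43.3 and 12.5 CPM; −1.80, −1.90 to −1.69). Axin2, the general feedback target, measured 17.8 and 9.97 CPM. The inhibitor Dkk1 was the higher member (0.283 and 5.08 CPM). Rspo3 was in the medium at both days, by the protocol.

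CTTTGAT, a core of the TCF and LEF site, occurred in 1 of 13 windows from 8 members of the Wnt target list, that of Sp5, or 7.69%, against 3.73% of all windows. ATGCAAAT, the octamer that POU factors such as Oct1 and Oct4 recognise, occurred in 1 of 14 windows of the naive list, that of Zfp42, or 7.14%, and in 0 of 12 windows of the general pluripotency list, against 1.74% of all windows. AGGTGTGA, a core of the T-box site, was present in 1 of 17 windows of the streak list, that of Mesp1, which stayed below 5 CPM, and in 0 of 13 of the presomitic list, against 1.28%. Sp5 and Zfp42, both lower at day 6, are shown with these letters in capitals (RefSeq, GRCm38.p6; chr2:70474673-70474922, plus strand, and chr8:43307010-43307259, minus strand).
Sp5: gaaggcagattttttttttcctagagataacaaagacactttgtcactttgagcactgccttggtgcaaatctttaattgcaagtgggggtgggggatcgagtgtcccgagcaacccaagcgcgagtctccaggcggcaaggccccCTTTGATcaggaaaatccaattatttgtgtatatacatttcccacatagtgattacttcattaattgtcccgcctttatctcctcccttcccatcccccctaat
Zfp42: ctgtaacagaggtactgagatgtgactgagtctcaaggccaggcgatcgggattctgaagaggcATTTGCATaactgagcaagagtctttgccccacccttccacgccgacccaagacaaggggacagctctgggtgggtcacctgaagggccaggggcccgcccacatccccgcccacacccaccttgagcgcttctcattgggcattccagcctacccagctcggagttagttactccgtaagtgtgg
In the Sp5 window 1 of the other motifs, GTGGGAA, is present as well and does not overlap the match in capitals. Zfp42 carries its match on the opposite strand and measured 63.4 and 24.4 CPM.

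Most measured genes of the BMP and TGF-beta response list rose, in medium that by the protocol held the BMP receptor inhibitor. The list joins genes of both pathways and was not split between them. Of 10 measured response genes 7 were higher and 0 lower, with a median of 2.35 (−0.63 to 3.88). The inhibitors of helix-loop-helix factors rose, Id1 from 8.32 to 81.1 CPM (3.29; 3.17 to 3.41), Id2 from 16.5 to 98.6 CPM, Id3 from 83.2 to 262.7 CPM and Id4 from 1.26 to 18.5 CPM. The matrix protein Tgfbi, a TGF-beta response gene, rose from 0.964 to 39.4 CPM. Smad7, the inhibitory Smad, went the other way without passing 2-fold (40.1 and 21.0 CPM). Ligands and antagonists of the family were split, with 5 of 11 measured higher and 5 lower. Bmp4 measured 1.62 and 22.8 CPM (3.81; 3.55 to 4.09), Bmp2 0.154 and 6.37 CPM and Tgfb2 2.24 and 47.7 CPM. The Nodal inhibitors Lefty1 and Lefty2 measured 129.4 and 13.7 CPM and 14.2 and 1.63 CPM, and the activin antagonist Fst 232.6 and 65.3 CPM.

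FGF output was lower for part of its list, with 3 of 11 measured response genes lower and 1 higher (median −0.84; −2.70 to −0.10). Etv5, an ETS factor downstream of ERK, measured 50.8 and 6.39 CPM, Etv4 61.4 and 9.46 CPM (−2.70; −2.82 to −2.58), and the inhibitor Spry4 9.87 and 2.18 CPM. Spry1 was the higher member (5.16 and 26.1 CPM), and Dusp6, a phosphatase of ERK, stayed at 39.8 and 37.2 CPM. Receptors Fgfr2 and Fgfr3 rose from 3.02 to 16.7 and from 0.296 to 6.93 CPM.

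Retinoic acid genes rose for 7 of 11 measured members and fell for 2, with a median of 3.85. The synthesising enzyme Aldh1a2 rose while Aldh1a3 fell from 27.3 to 5.63 CPM. The degrading enzyme Cyp26b1 had 3 UMIs at day 3 and 7.65 CPM at day 6, the receptor Rarb measured 0.270 and 9.30 CPM, and the uptake receptor Stra6 0.36 and 10.4 CPM. Rarg was the other lower member, at 32.5 and 11.5 CPM. The protocol names no retinoic acid. By cluster of the day 6 library, 54.6% of Aldh1a2 UMIs lay in the somite-like cluster described below, and 27.5% and 40.4% of Cyp26b1 UMIs in the pair of neural progenitor-like clusters.

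Imprinted genes were higher for 11 of 14 measured members and lower for 0, with a median of 2.08 (0.81 to 3.41). H19, a maternally expressed RNA, measured 1.63 and 387.9 CPM (7.89; 7.64 to 8.16). The paternally expressed Mest rose from 61.1 to 647.6 CPM, Peg10 from 14.9 to 111.1 CPM and Dlk1 from 2.47 to 56.6 CPM, and the cyclin-dependent kinase inhibitor Cdkn1c from 36.0 to 276.5 CPM. Meg3, Mirg and Igf2r changed by less than 2-fold. The counts do not separate the parental alleles. At day 6, 41.3% of H19 UMIs lay in the somite-like cluster and 21.7% in a mesenchyme-like one.

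Among the 15 highest genes by the naming rule were also the orphan nuclear receptors Nr2f1 (0.321 and 102.7 CPM; 8.32, 7.76 to 8.95) and Nr2f2 (0.591 and 63.6 CPM). Igfbp5, which binds insulin-like growth factors, measured 1.17 and 219.2 CPM, the long noncoding RNA Pantr1 0.180 and 58.5 CPM, the Hox cofactor Meis1 0.977 and 64.0 CPM, and the troponin gene Tnni2 0.0514 and 33.7 CPM.

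Members of the S phase list and of the G2 and M list rarely passed 2-fold. Of the S phase list 1 of 15 measured members was lower, the cyclin Ccne1 (160.5 and 73.7 CPM), and of the G2 and M list 0 of 15 passed 2-fold. The medians were −0.19 (−0.63 to −0.12) and 0.25 (0.05 to 0.32), against 0.22 for all genes. The S phase interval thus lay below the median of all genes. The D-type cyclins changed over, Ccnd1 being lower while Ccnd2 and Ccnd3 rose from 100.6 to 311.2 and from 60.8 to 158.0 CPM. None of 12 measured p53 targets passed 2-fold (median 0.19). Pou2f1 itself (ENSMUSG00000026565, mm10 chromosome 1, 165865154 to 166002678, minus strand) measured 30.1 CPM in ESC, 28.3 CPM at day 3 and 30.9 CPM at day 6.

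Of 8 measured genes of DNA methylation 4 were lower and 2 higher. The lower ones were Dnmt3b, Dnmt3a (85.4 and 36.8 CPM), Dnmt3l (45.6 and 6.55 CPM) and the dioxygenase Tet1 (44.8 and 20.5 CPM), and the higher ones Tet3 (10.9 and 28.7 CPM) and Tet2 (4.41 and 9.12 CPM). The maintenance enzyme Dnmt1 measured 89.6 and 97.3 CPM. Polycomb genes stayed within 2-fold for 10 of 14 measured members, and Ezh2, the H3K27 methyltransferase, measured 233.8 and 268.8 CPM. Cbx7 and Pcgf6 were lower (37.8 and 11.7 CPM, 91.3 and 42.6 CPM), and Bmi1 and the demethylase gene Kdm6b higher (2.78 and 15.5 CPM, 23.3 and 47.1 CPM).

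In metabolism, 3 of 10 measured genes of serine, threonine and one-carbon metabolism were lower and 0 higher (median −0.88), namely Tdh, Mthfd1 (99.0 and 33.5 CPM) and Shmt1 (59.2 and 26.3 CPM). Of 13 measured genes of glycolysis and hypoxia 5 were higher and 0 lower, including Pgk1 (444.0 and 1201.4 CPM) and the hypoxia gene Bnip3 (34.7 and 105.4 CPM). Of 11 measured genes of metallothionein and oxidative defence 5 were lower and 0 higher, including Mt1 (857.9 and 391.1 CPM).

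A reading by cells was taken because the libraries differ in depth. Each cell was thinned at random to 5000 UMIs, which left 893 day 3 and 1301 day 6 cells and left out 55 and 245. The loss fell mostly on shallow clusters described below. Of day 6 clusters 1 (unnamed) and 6 (mesenchyme-like), 89 of 202 and 69 of 154 cells were left, and of day 3 cluster 6, 40 of 67. The thinned shares therefore count these clusters for less than their part of the library. Cells in which 2 or more pluripotency markers were seen made up 90.7% (88.6 to 92.5, exact binomial interval) at day 3 and 6.38% (5.11 to 7.85) at day 6. Without thinning it was 97.5% and 17.3%. For the neural progenitor markers it was 6.94% and 44.4%, against 74.3% and 56.7% without thinning, where the deeper day 3 cells reach 2 low genes more easily. Somite markers were seen together in 0 of 893 day 3 cells (exact interval 0 to 0.412%), where 3 counts of the total are 0.336%. They were seen together in 11% (9.34 to 12.8) of day 6 cells. Without thinning the somite shares were 7.38% at day 3 and 22.6% at day 6. Smooth muscle or mesenchyme markers were at 4.59% and 31.4%, caudal neuromesodermal markers at 21.6% and 4.77%, and primed epiblast markers at 75.4% and 7.30%. Without thinning these were 33.4% and 54.2%, 75.9% and 20.7%, and 94.2% and 40.5%. Surface epithelium markers went from 52.1% to 35.7%, but with at least 3 markers required they went from 20.2% to 27.3%. At least 2 young neuron markers were seen in 10.8% and 14.8% of cells, and at 10000 UMIs per cell in 20.4% and 20.3%, so no direction is read from that list. Free RNA in droplets adds UMIs to cells that do not express a gene, and the globin Hba-x gives a gauge of it below.

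Somite and neural progenitor markers were each present in the same thinned day 6 cell for 28 of 1301 cells, or 2.15% (1.43 to 3.1), while the product of the separate shares is 4.88%. Neural progenitor and epithelial markers met in 3.23% of cells (2.34 to 4.34), against a product of 15.9%. Pluripotency and epithelial markers met in 5.23% (4.08 to 6.58), against 2.28%, and 81.9% of the cells with the first also held the second, which include the pluripotency-shared genes Cdh1 and Epcam.

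The day 6 library was clustered on its own into 13 clusters. A cluster was named with the ending "-like" when enough markers of a list led it, by a rule set after the data were seen. The genes that define a cluster are no result, and the names and shares moved with the clustering settings, as given in the closing section. Surface epithelium-like cells formed 14.2% of the library (cluster 5, 219 cells), somite-like cells 13.6% (cluster 3, 210 cells), and neural progenitor-like cells 8.41% and 12.6% (clusters 0 and 7). Pluripotent-like cells made up 7.24% (cluster 10, 112 cells), young neuron-like cells 5.24% and 4.92% (clusters 2 and 8), smooth muscle or mesenchyme-like cells 3.17% and 9.96% (clusters 4 and 6), and primitive blood-like cells 0.517% (cluster 11, 8 cells). Clusters 1, 9 and 12 stayed unnamed. Clusters 1 and 6 were shallow, with medians of 4627 and 4619 UMIs. Cluster 6 held smooth muscle or mesenchyme markers at 10557.1 CPM, but also epithelial markers at 5560.7 CPM and cardiac markers at 1124.8 CPM. Epithelial markers stood at 9739.4 CPM in cluster 5, so the name of cluster 6 covers part of what it held. Neural progenitor markers summed to 3322.1 and 3281.0 CPM in clusters 0 and 7, but to 7995.2 CPM in young neuron-like cluster 2. The neural progenitor name therefore does not mark the cluster where these markers were highest. Cluster 8 was the deepest at a median of 98670 UMIs and held genes of different programmes side by side, with Tubb3 at 321.0 CPM, Meox1 at 115.7 CPM and Hoxb9 at 146.8 CPM. Scrublet marked 2 of 1546 day 6 cells as doublets, or 0.129%, too few to count as a working filter, so all barcodes were kept. Whether cluster 8 holds doublets was not tested.

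**Figure D4:**
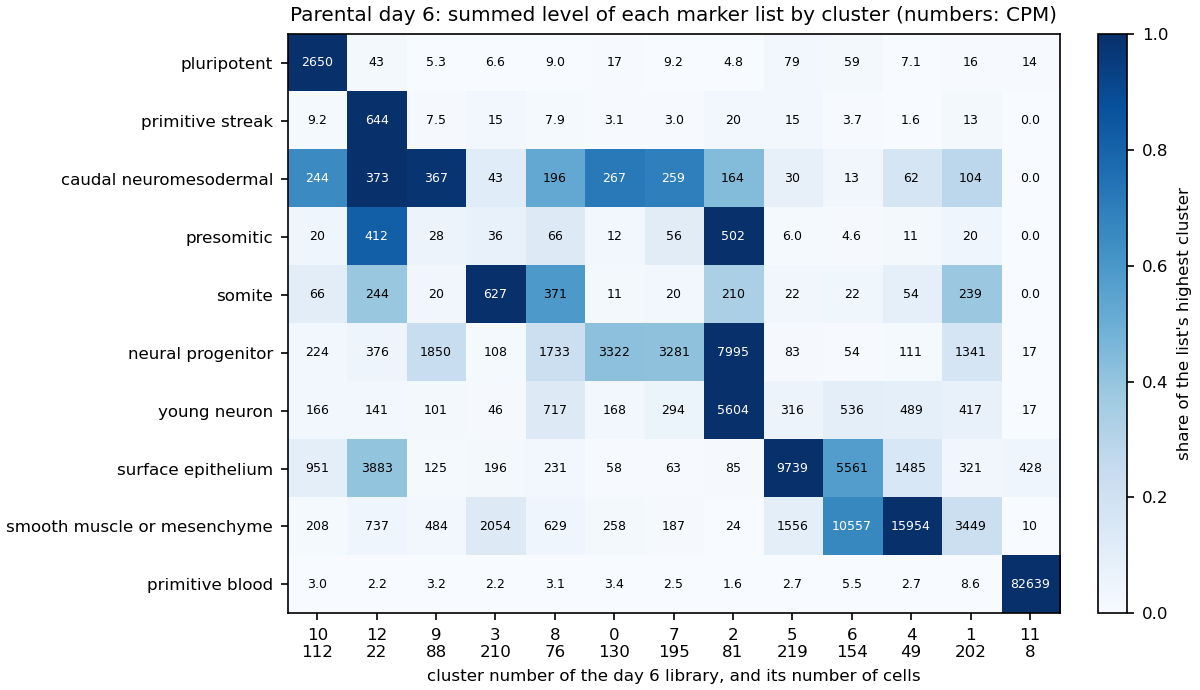
Summed level in CPM (numbers) of each marker list (rows) in the 13 clusters of the Parental day 6 library (columns, with cell numbers), shaded by the share of the list's highest cluster. Pluripotency markers are concentrated in cluster 10 and primitive blood markers in cluster 11. Somite markers are highest in clusters 3 and 8 (626.7 and 371.0 CPM) but also reach 209.6 to 244.2 CPM in clusters 1, 2 and 12. Epithelial markers are highest in clusters 5, 6 and 12, and neural progenitor markers in cluster 2 (7995.2 CPM).

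The pluripotency transcripts left at day 6 lay in few cells. Cluster 10, with 7.24% of the cells, held 86.9% of the Pou5f1 UMIs of the library, 97.0% of Nanog, 96.3% of Dppa5a and 99.5% of Tdh. Its Pou5f1 level was 280.7 CPM, against 512.4 CPM over the day 3 library and 1.5 CPM in cluster 7. Zfp42, Klf4 and Dppa5a, picked after their values were seen, measured 200.2, 50.8 and 1698.0 CPM in cluster 10 and 63.4, 9.74 and 412.3 CPM over the day 3 library. Day 3 cluster 1 alone held them at 276.7, 42.7 and 1479.7 CPM. The naive gene Tdgf1 was at 136.4 CPM in cluster 10, below its 172.7 CPM over the day 3 library. The primed gene Fgf5 was at 0.168 CPM in cluster 10 and at 12.6 CPM over the day 3 library. Over the day 6 library Pou5f1, Nanog, Dppa5a and Tdh therefore describe mainly that cluster. Fgf5 does not, since its level in cluster 10 was below its level over the day 6 library. Cluster 10 was formed from the same counts, so this is a description.

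Hox levels differed between the clusters of day 6. Hoxb4 was high in young neuron-like cluster 2 (288.6 CPM), in the somite-like cluster (79.0 CPM) and in neural progenitor-like clusters 0 and 7 (65.2 and 60.0 CPM), and low in the epithelium-like (8.99 CPM) and pluripotent-like (7.38 CPM) clusters. Hoxb9, of the trunk, was highest in unnamed cluster 9, at 275.7 CPM, which also held Hoxc9 at 119.0 CPM, Sox1 at 82.7 CPM and Pax6 at 103.6 CPM. In neural progenitor-like cluster 0 Hoxb9 stood at 8.47 CPM and in the somite-like cluster at 41.9 CPM. Cluster 9, with 5.69% of the cells, contributed 36.2% of all Hoxb9 UMIs and 46.4% of Hoxc9, and the mixed cluster 8 another 32.6% and 24.7%.

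Other rises belonged to separate clusters as well. Of the Meox1 UMIs 68.2% lay in the somite-like cluster and 20.7% in cluster 8. Acta2 UMIs lay to 58.5% in cluster 4, 13.4% in the somite-like cluster and 10.5% in cluster 6, and Krt18 UMIs to 87.3% in the epithelium-like cluster. That cluster also held 87.1% of Wnt6, 71.8% of Wnt7b and 71.6% of Bmp4 UMIs. Of the T UMIs 86.1% lay in the 22 cells of unnamed cluster 12, at 305.5 CPM. Hba-x, an embryonic globin, had 1 UMI at day 3 and 177.5 CPM at day 6, and 99.4% of its day 6 UMIs came from the 8 cells of cluster 11. It was nonetheless seen in 0% to 9.09% of the cells of each other cluster, which gives a scale for free RNA in that library.

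The day 3 library gave 7 clusters, of which 3 were named. Cells called caudal neuromesodermal-like formed 28.9% (cluster 0, 274 cells), primitive streak-like cells 20.9% (cluster 2, 198 cells) and smooth muscle or mesenchyme-like cells 7.07% (cluster 6, 67 cells at a median of 5914 UMIs). The caudal markers summed to 312.9 CPM in cluster 0, but to 322.5 CPM in unnamed cluster 1 and 456.2 CPM in unnamed cluster 5. The caudal name therefore does not mark the cluster where these markers were highest. Smooth muscle or mesenchyme markers summed to 709.7 CPM in cluster 6, the highest of the day 3 clusters. Pluripotent and primed epiblast markers stood above them there, at 1536.8 and 844.9 CPM, so that name covers part of what the cluster held. Pou5f1 was between 430.1 and 579.2 CPM in each of the 7 clusters. T measured 33.0 CPM in cluster 0, 84.3 CPM in cluster 2 and 99.3 CPM in unnamed cluster 5, and Cdx2 51.6, 15 and 63.0 CPM there. Krt8 was at 305.9 CPM in unnamed cluster 3 and at 13.6 CPM in cluster 0.

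Median gene levels on chromosomes 1, 6, 8 and 11 differed between these clusters. In each cluster the median log2 ratio to the rest of its library was taken over the genes of a chromosome and set against that of all genes. The 4 chromosomes were chosen with earlier results of these data known. No other chromosome was taken by cluster, so these shifts have no background to be read against. Day 3 cluster 0 stood at 0.33, 0.31 and 0.35 for chromosomes 1, 6 and 8 and at −0.34 for chromosome 11, and the streak-like cluster 2 at −0.35, −0.31, −0.34 and 0.35. Unnamed day 3 cluster 1 (0.23, 0.30, 0.25 and −0.26) went as cluster 0. Day 3 clusters 4 (−0.23, −0.27, −0.24 and 0.18) and 6 (−0.25, −0.15, −0.09 and 0.13) went as cluster 2. At day 6 the same direction as in day 3 cluster 0 was seen in neural progenitor-like clusters 0 (0.21, 0.19, 0.27 and −0.20) and 7 (0.22, 0.20, 0.23 and −0.23). It was also seen in young neuron-like cluster 2 (0.33, 0.21, 0.21 and −0.18) and in the 8 cells of blood-like cluster 11 (0.33, 0.13, 0.26 and −0.39). The opposite direction was seen in the somite-like cluster (−0.21, −0.12, −0.21 and 0.19) and, for chromosomes 1, 6 and 8, in the epithelium-like cluster (−0.14, −0.23 and −0.13). Between the libraries as wholes the median log2 ratio was 0.15, 0.13 and 0.07 on chromosomes 1, 6 and 8 and 0.32 on chromosome 11. Other chromosomes had like values, with 0.14 on chromosomes 5 and 18, 0.30 on chromosome 9 and 0.31 on chromosome 16. No shift particular to the 4 chromosomes is therefore read between the libraries. The labels give no karyotype, and the part of these shifts in the gene differences was not tested; without the 4 chromosomes 1379 genes were higher and 414 lower, 76.9% of the calls being higher.

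The same step in the Oct1_cKO cells used separate libraries, 1026 cells at day 3 and 1650 at day 6. There 2266 of 9835 measured genes were higher, or 23.0%, and 759 lower, or 7.72%. Over 9500 genes measured in both genotypes the log2 ratios had a Pearson correlation of 0.889 and a Spearman correlation of 0.854, which is across genes and a description. Of these genes 1302 were higher in both, which is 84.3% of the 1544 higher in Parental and 63.8% of the 2041 higher in Oct1_cKO. Lower in both were 412, which is 80.6% of 511 and 56.1% of 734. With 1 library each, the difference between the steps was not tested.

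The somite list had medians of 4.40 in Parental and 4.74 in Oct1_cKO, where 5 of 6 measured members were higher. Pluripotency genes fell in both, with 13 of 15 members of the general list lower in Oct1_cKO (median −2.71). Of the neural progenitor list, with 14 of 17 higher in Parental, 3 of 9 measured members were higher in Oct1_cKO and 3 lower, with a median of 0.43 (−3.48 to 1.59), over a different set of measured genes. Sox2, at 77.8 and 111.1 CPM in Parental, went from 73.0 to 11.1 CPM in Oct1_cKO, and Hes5 from 0.654 to 3.91 CPM. The epithelial list had 10 of 15 measured members higher in Oct1_cKO and 0 lower (median 3.47), with Wnt6 going from 6.91 to 511.4 CPM. Pou2f1 measured 12.6 and 16.0 CPM in the Oct1_cKO libraries of day 3 and day 6, and a 5′ tag need not lie in the deleted part, so this does not measure the deletion.

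**Figure D5:**
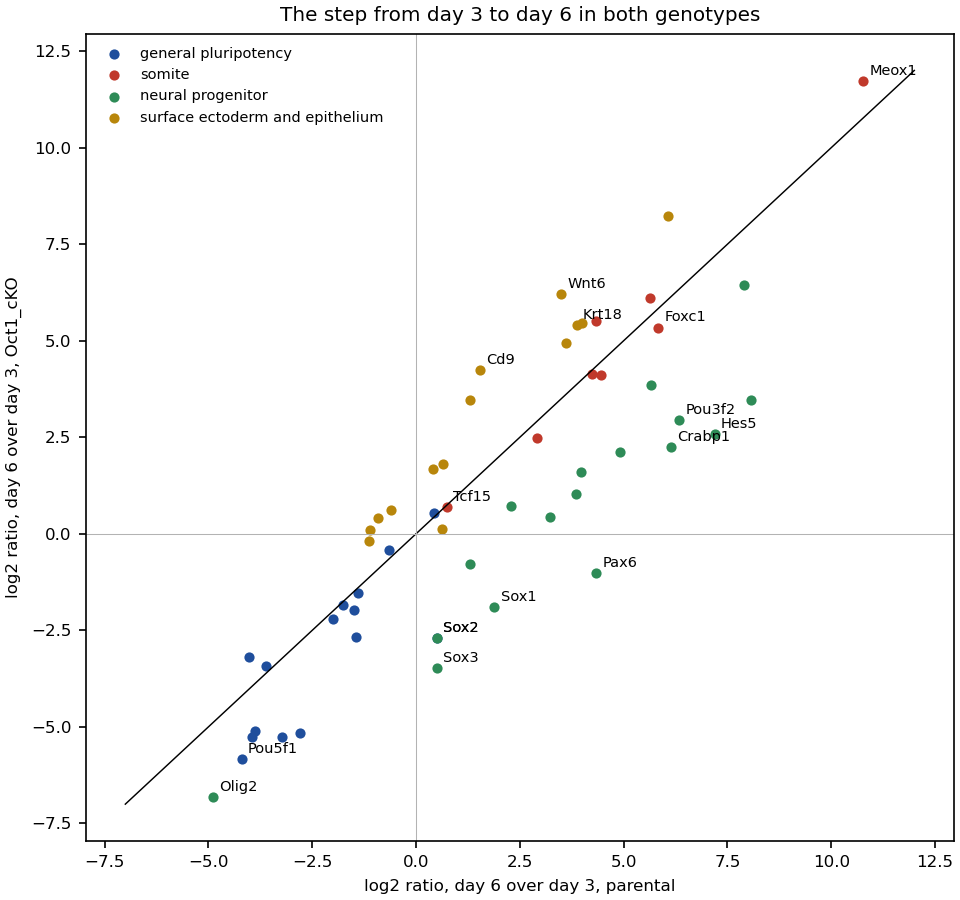
Log2 ratio of day 6 over day 3 in Parental (x axis) and Oct1_cKO (y axis) for the members of 4 lists measured in Parental (dots), with the diagonal of equal ratios. Somite members lie near the diagonal, neural progenitor members below it, and surface epithelium members mostly above it; Pax6 is at 4.34 in Parental and −1.02 in Oct1_cKO.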

How the data were processed

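Single-cell 5′ libraries (10x Genomics, per the labels' protocols) of Parental cells at day 3 and day 6 were analysed. Per the submitters' processing notes and the file headers, the authors ran Cell Ranger 3.1.0 on mm10. The deposited values are raw UMI counts per gene and barcode. Antisense and overlapping genes are uncertain where strand use is not given. Counts of kept cells were summed per library and scaled to CPM. Ratios carry exact conditional binomial 95% intervals, CPM and shares exact ones, list medians order-statistic intervals over genes (their range with under 6 genes). A count of 0 was set to 3 over the library, and such a ratio is a bound at that floor, which can differ from the limit of its counting interval.

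Named genes were Pou2f1, the 15 highest and 15 lowest log2 ratios (1 CPM added) with at least 20 CPM and UMIs in at least 5% of cells of the higher library, leaving out mitochondrial, ribosomal and unnamed genes, and list members by role. Genes given by cluster were chosen after their values were seen. The cells, lists and markers (52 lists) were chosen with earlier results of these data known. Clustering used 2000 variable genes, 30 components, 15 neighbours and Leiden resolution 0.8 (scanpy 1.11.5, igraph 0.11.9). A cluster was named with at least 3 markers of a type among its top 50 genes by fold, at least 2 more than any other type, and at least 1 among its top 10. TMM factors came from edgeR 4.0.16. Gene positions are from GENCODE vM21, matched for 31011 of 31053 genes. The comparison was tested on simulated data. Python 3.11.15, numpy 2.4.6, pandas 2.3.3 and scipy 1.17.1 were used. Alternatives covered cell filters, doublet removal, scaling, CPM and fold thresholds, thinning depth and clustering settings.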

Additional observations from a re-analysis of the deposited data

Results flagged for a closer look

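From day 3 to day 6, 11 of 9500 genes measured in both genotypes were at least 2-fold higher in Parental and at least 2-fold lower in Oct1_cKO. The reverse was seen for 0 genes. Of the 9500, 1544 were higher in Parental and 734 lower in Oct1_cKO, while 511 were lower in Parental and 2041 higher in Oct1_cKO. Each direction rests on 1 library per stage and genotype, and the difference between the genotypes was not tested. Values are given for day 3 and day 6, with log2 ratios in brackets. Tubb3, the neuronal tubulin, measured 46.1 and 144.4 CPM in Parental (1.65) and a day 6 level of 8.14 CPM in Oct1_cKO (−1.88). Nefm, a neurofilament chain, measured 7.52 and 18.9 CPM in Parental (1.33) and 20.8 and 8.3 CPM in Oct1_cKO (−1.33). Nova2, a neuronal splicing factor, measured 2.73 and 9.72 CPM in Parental (1.83) and 6.22 and 2.46 CPM in Oct1_cKO (−1.34). Dll1, a Notch ligand, measured 2.4 and 12.9 CPM in Parental (2.43) and 5.63 and 1.98 CPM in Oct1_cKO (−1.51). Sfrp2, a secreted Wnt inhibitor, measured 22.8 and 88.0 CPM in Parental (1.95) and 16.6 and 3.65 CPM in Oct1_cKO (−2.19). Celsr2, a cadherin of planar polarity, measured 6.77 and 24.7 CPM in Parental (1.87) and 5.72 and 1.9 CPM in Oct1_cKO (−1.59). Igfbpl1 measured 6.16 and 22.6 CPM in Parental (1.88) and 6.36 and 2.08 CPM in Oct1_cKO (−1.61). Ebf1, a B cell and mesenchyme factor, measured 6.98 and 21.0 CPM in Parental (1.59) and 21.1 and 9.42 CPM in Oct1_cKO (−1.17). Fmn2, a formin, measured 4.5 and 10.1 CPM in Parental (1.17) and 5.1 and 1.3 CPM in Oct1_cKO (−1.97). Sept3, a septin, measured 10.8 and 23.7 CPM in Parental (1.13) and 7.45 and 2.97 CPM in Oct1_cKO (−1.33). Hist3h2ba, a histone gene, measured 14.6 and 29.8 CPM in Parental (1.03) and 10.8 and 3.59 CPM in Oct1_cKO (−1.59).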

How the results depend on the processing

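No paired analysis was possible because each group holds 1 library and carries no replicate number, and for the same reason no replicate could be left out. Without scaling, and with cells of at least 10000 UMIs, were alternatives added after seeing the data. Counts of 1844 higher and 544 lower genes stayed within 1.5 times under other cell filters, doublet removal, equal weight per cell, another total and 4 chromosomes left out. Higher genes numbered 843 at 20 CPM or more, 2857 at 1 CPM or more, 622 at 4-fold and 688 as UMIs per cell without scaling. Lower genes numbered 289, 966, 156 and 2998 under these settings, 852 with TMM factors and 839 with median-of-ratios factors. The turn without scaling goes with the shallower day 6 cells.

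Of 567 list medians over 48 lists and 12 settings, 547 stayed within their interval, 16 lay outside and 4 reversed. A setting that left too few members gave no median. The oxidative phosphorylation median reversed to −0.12 with TMM and −0.12 with median-of-ratios factors and to −0.76 without scaling, and was 0.16 with equal weight per cell. The G2 and M median was 0.01 with either of those factors and reversed to −0.63 without scaling. Ribosomal proteins stood at −0.36 with TMM, −0.35 with median-of-ratios and −0.99 without scaling. Also without scaling, medians were −2.77 for the caudal list, 0.26 for Notch, −0.75 for Polycomb, −1.06 for S phase, −0.68 for p53 targets, −0.68 for histones, −1.75 for one-carbon metabolism, −1.75 for oxidative defence and −0.06 for YAP targets. The fibroblast median was 7.81 under the stricter cell filter of 2000 genes and a 5% mitochondrial limit.

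Names of clusters depended on the settings. Day 3 gave 11 clusters at resolution 1.2 and day 6 gave 8 at resolution 0.4. With 1000 variable genes caudal-like cells were 22.5% of day 3, streak-like 0% and smooth muscle-like 0%, and at day 6 neural progenitor-like cells were 15.2%, somite-like 0% and young neuron-like 8.34%. With 4000 variable genes caudal-like cells were 0%, smooth muscle-like cells of day 3 0%, and at day 6 neural progenitor-like cells 7.05%, pluripotent-like 4.85% and young neuron-like 5.69%. At resolution 0.4 streak-like cells were 0%, and at day 6 smooth muscle-like cells 28.5%, somite-like 0%, young neuron-like 5.11% and blood-like 0%. At resolution 1.2 caudal-like cells were 12.2%, streak-like 8.97% and smooth muscle-like cells of day 3 0%, and at day 6 neural progenitor-like cells 13.2%, pluripotent-like 3.95% and blood-like 2.65%. The cause was not tested.

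Differences in shares of cells, day 6 less day 3 in percentage points, moved with the thinning depth, at 10000, then 3000 UMIs. They were −87.3 and −75.2 for pluripotency markers, −31.1 and −9.58 for caudal, 28.6 and 32.9 for neural progenitor, 30.4 and 22.9 for smooth muscle, 16.4 and 5.52 for somite and −36.2 and −1.16 for epithelial markers. Young neuron markers reversed to −0.170 at 10000 UMIs. With at least 3 markers the differences were −68.3 for pluripotency, −6.06 for caudal, 16.9 for smooth muscle, 3.38 for somite and 6.96 for young neuron markers, and epithelial markers reversed to 7.13.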

Other observations

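Further lists describe groups not covered above, each with its counts of higher and lower genes and, where given, its median log2 ratio, to be read against 0.22 and against 18.3% and 5.41% of all genes. Of immediate early genes 6 of 10 measured were higher and 0 lower (median 1.07, −0.38 to 1.74), including Ier3 (11.4 and 41.0 CPM) and Jun (26.9 and 89.9 CPM). YAP targets were higher for 4 of 8 (median 0.81, −0.00 to 5.95), led by Ankrd1 (0.347 and 21.5 CPM). The integrated stress response had 2 of 11 higher and 3 lower (median −0.52, −1.40 to 1.13), with Trib3 at 15.5 and 4.30 CPM and Atf4 at 184.5 and 91.6 CPM. Of germline genes 2 of 4 measured were lower, Ddx4 (8.61 and 1.41 CPM) and Sycp3 (6.84 and 0.693 CPM). The POU factors had 3 of 7 higher, all of class Pou3f, and 2 lower, Pou5f1 and Pou3f1.

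Wnt antagonists were higher for 3 of 4 measured, led by Dkk1, and FGF ligands and receptors for 3 of 9, with 4 lower. The list of lateral plate, cardiac and smooth muscle had 5 of 5 measured higher (median 3.46), all of them contractile genes. Of the fibroblast list 3 of 4 measured were higher, all collagens, and Mgp lower. Of the list of endothelium and blood 3 of 4 measured were higher, all embryonic globins, with no UMI of Hbb-bh1 at day 3 and 50.6 CPM at day 6. Hbb-y had a log2 ratio of 11.34 with its day 3 count set at the floor of 3. The lower member of that list was Etv2 (6.85 and 2.86 CPM), while Pecam1 and Cdh5 stayed under 5 CPM at both days. In the endoderm and the notochord lists 1 member each was measured, Rhox5 (15.2 and 5.05 CPM) and T, both lower. Smad genes had 1 of 6 higher, Smad3 (4.62 and 12.2 CPM), Myc family genes 1 of 6, Mxi1 (8.66 and 18.7 CPM), and histones 2 of 13, H1f0 and H2afy. Of 10 measured D-type cyclins, kinases and inhibitors 6 were higher and 1 lower. The prefix list of ribosomal proteins had 1 of 87 higher, which is the kinase gene Rps6ka3 and no ribosomal protein, and 0 lower (median −0.12). Oxidative phosphorylation had 6 of 92 higher and 0 lower (median 0.12). None of the 6 genes of the 2-cell list was measured.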
